A study of Mus musculus with 5 samples.

Results

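The 40 synaptic vesicle release genes described here encode proteins that fill the presynaptic vesicle membrane, sense calcium, drive membrane fusion, or build the site where vesicles dock. They were chosen by gene symbol, with earlier results of these data known, from families whose isoforms differ between neuron types. They are 40 of 21031 protein-coding genes that have a curated transcript in RefSeq. A member counted as listed for an antibody when at least 1 region carried its symbol, and a symbol with no row counted as having no listed region. By this rule 39 of the 40 had a region for at least 1 antibody. The nuclei came from the striatum of C57BL/6 mice aged 8 weeks, were sorted by NeuN, and carry the label of medium spiny neurons, the GABAergic projection cells that dominate the striatum. NeuN is found in most neurons, so the sort also admits striatal interneurons. Chromatin was immunoprecipitated for trimethylated histone H3 lysine 4 (H3K4me3), trimethylated lysine 27 (H3K27me3), acetylated lysine 27 (H3K27ac) and RNA polymerase II (Pol II), with 1 library for each antibody and 1 input library. No genotype or treatment separates the libraries, no replicate exists, and no test between conditions was possible. How many mice were pooled is not given in the sources used here. The values are the authors' region lists over input, in which each region near a transcription start site has a score given by the authors. Read depth is not known from these lists.

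Neurotransmitter is released when the vesicle protein synaptobrevin pairs with syntaxin and SNAP-25 of the plasma membrane, a step that complexins clamp and promote and that synaptotagmins couple to calcium. Rab3, RIM and Munc13 proteins dock and prime vesicles at the active zone, which Bassoon, Piccolo and ELKS proteins scaffold. Most of these proteins exist in several isoforms that brain regions use differently. H3K4me3 marks promoters, H3K27ac marks active promoters and enhancers, and H3K27me3 is laid down by Polycomb repressive complexes. Since each list stems from a pool of nuclei, marks listed for the same gene may lie in different cells, and fewer cells with a mark cannot be told apart from less of it per cell.

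Marker genes matched the label. All 12 medium spiny neuron markers, among them Ppp1r1b, Bcl11b, Pde10a, Drd2 and Adora2a, had H3K4me3, H3K27ac and Pol II. Of the 12, 5 also had H3K27me3. The 12 include Gad1 and Gad2, which mark GABAergic neurons in general and not medium spiny neurons alone. None of 6 markers of other striatal neurons, 5 of astrocytes, 5 of microglia or 5 of endothelial cells had H3K27ac or Pol II. Of 6 oligodendrocyte markers, Mbp alone had both. Of 5 glutamatergic neuron markers, 2 had H3K27ac (Slc17a7 and Neurod2) and 2 had Pol II (Tbr1 and Neurod2). The H3K27ac region of Neurod2 was the same as that of Ppp1r1b, and the part of such signal in the results below was not tested.

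The first question was how many of the release genes carried each mark. H3K4me3 was listed for 39 of the 40 members, against 68.4% of all coding genes. H3K27ac was listed for 37 members, against 51.5% of coding genes, and Pol II for 34, against 41.7%. H3K27me3 was listed for 7 members, Syt2, Syt10, Syt13, Vamp1, Cplx1, Cplx3 and Sncb, against 42.5% of coding genes. In these single libraries the release genes were listed more often than coding genes in general for the 3 marks of active promoters. For H3K27me3 they were listed less often. The members were chosen with earlier results of these data known, so these shares describe this list of genes only.

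**Figure D1:**
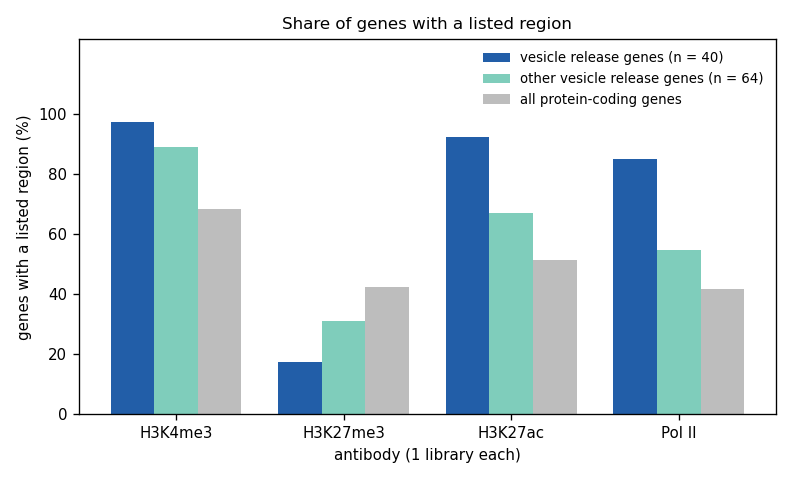
Share of genes with a listed region (vertical axis, percent) for each antibody, for the 40 vesicle release genes, 64 other vesicle release genes and all protein-coding genes, with 1 library per antibody and no error bars. The 40 genes stand highest for H3K4me3, H3K27ac and Pol II, with 97.5%, 92.5% and 85% listed, and lowest for H3K27me3, with 17.5%.

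By combination, 30 members had H3K4me3, H3K27ac and Pol II without H3K27me3, the state of 34.8% of coding genes. Stx1a and Rab3b had H3K4me3 and H3K27ac without Pol II, the state of 6.24% of coding genes. Syt10, Vamp1, Cplx1 and Sncb were listed for all 4 antibodies, as were 5.93% of coding genes. Syt2 and Cplx3 had H3K4me3 and H3K27me3 alone, the state of 13.4% of coding genes, and Syt13 had H3K27ac besides, a state of 4.4%. Unc13c had no region of any antibody, like 13.3% of coding genes. The lists do not show which transcripts were searched, so a gene without a region may not have been covered.

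Scores were ranked within each list, as the percent of listed coding genes with a lower score. The 37 members with H3K27ac had a median percentile of 75.3, and 19 of them lay at or above percentile 75. For H3K4me3 the median of the 39 listed members was 65.1, with 15 at or above percentile 75. For Pol II the median of the 34 listed members was 54.4, with 9 at or above percentile 75, so the scores of Pol II at these genes were close to those of other listed genes. The 7 members with H3K27me3 had a median percentile of 23.2. Rims2 led the members for H3K4me3 (98.1) and H3K27ac (98.0), and Cplx2 led for Pol II (98.8).

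**Figure D2:**
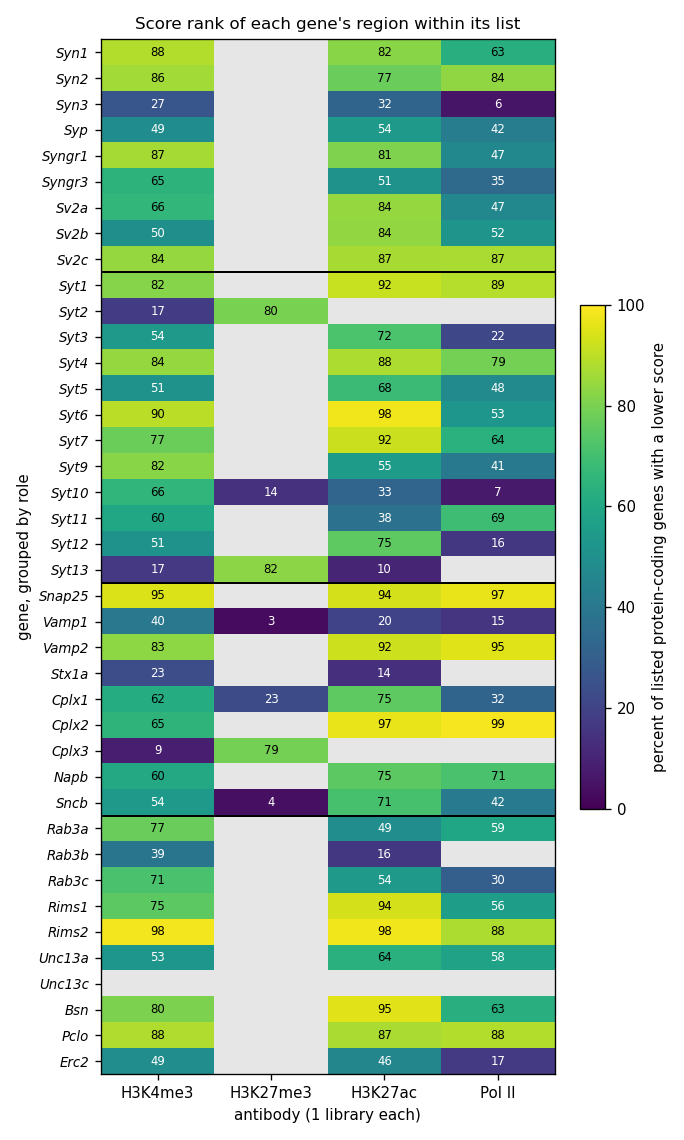
Percentile of each gene's score (colour and number) within the list of each antibody (columns), for the 40 vesicle release genes (rows, grouped from top to bottom as vesicle membrane, synaptotagmins, fusion machinery, and docking and active zone). Grey cells are genes without a listed region, such as all 4 cells of Unc13c, and H3K27me3 fills 7 cells.

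Promoter sequences are shown for the complexin and Munc13 families, where isoforms of the same family were listed for different marks, so that their CG pairs, the base step that CpG island promoters are rich in, can be compared. Each is the 250 bases before the annotated start in RefSeq (GRCm38.p6), with CG pairs in capitals. The region lists use build mm9, so these coordinates cannot be laid over the regions, and genes were matched by symbol.
Cplx1, chr5:108550028-108550277, minus strand: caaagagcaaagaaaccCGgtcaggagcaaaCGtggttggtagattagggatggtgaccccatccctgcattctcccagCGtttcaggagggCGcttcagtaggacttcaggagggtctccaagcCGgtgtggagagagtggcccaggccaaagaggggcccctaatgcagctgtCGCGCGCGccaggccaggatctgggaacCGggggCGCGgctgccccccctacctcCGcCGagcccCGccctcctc
Cplx2, chr13:54302306-54302555, plus strand: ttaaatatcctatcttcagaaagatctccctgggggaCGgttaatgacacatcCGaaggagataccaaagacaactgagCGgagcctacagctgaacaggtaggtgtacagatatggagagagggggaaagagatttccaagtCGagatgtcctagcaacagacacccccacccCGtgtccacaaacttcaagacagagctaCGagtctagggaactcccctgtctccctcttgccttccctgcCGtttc
Cplx3, chr9:57606282-57606531, minus strand: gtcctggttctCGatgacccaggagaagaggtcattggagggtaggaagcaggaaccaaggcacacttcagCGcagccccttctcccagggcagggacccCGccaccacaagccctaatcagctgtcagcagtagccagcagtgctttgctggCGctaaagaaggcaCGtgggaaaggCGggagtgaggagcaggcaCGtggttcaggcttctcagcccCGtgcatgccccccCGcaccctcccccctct
Unc13a, chr8:71671758-71672007, minus strand: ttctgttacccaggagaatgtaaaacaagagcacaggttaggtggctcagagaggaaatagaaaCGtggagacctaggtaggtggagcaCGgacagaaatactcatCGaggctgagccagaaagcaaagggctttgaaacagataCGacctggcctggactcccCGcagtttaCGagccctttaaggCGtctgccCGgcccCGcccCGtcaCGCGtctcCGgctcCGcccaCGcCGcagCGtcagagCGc
Unc13c, chr9:73969038-73969287, minus strand: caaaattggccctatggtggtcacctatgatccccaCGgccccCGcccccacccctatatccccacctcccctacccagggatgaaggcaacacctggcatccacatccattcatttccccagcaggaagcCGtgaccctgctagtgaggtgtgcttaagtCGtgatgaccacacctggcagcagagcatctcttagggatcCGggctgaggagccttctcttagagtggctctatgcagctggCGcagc

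Cplx1, listed for all 4 antibodies, held 15 CG pairs in this window. Cplx2, with the highest Pol II score of the members, held 7, and Cplx3, under H3K27me3, held 9. Unc13a, with H3K4me3, H3K27ac and Pol II, held 18 CG pairs, and the unlisted Unc13c held 6. The Unc13c window is the 1 entry of the table, and the annotated gene extends upstream of it. Whether any of the other windows lay in the listed region of its gene was not checked, because the builds differ.

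The 9 genes grouped here as vesicle membrane, apart from the synaptotagmins and synaptobrevins, were listed for the same marks. All 9 had H3K4me3, H3K27ac and Pol II without H3K27me3, the state of 34.8% of coding genes. They are the synapsins Syn1, Syn2 and Syn3, synaptophysin (Syp), the synaptogyrins Syngr1 and Syngr3, and the SV2 glycoproteins Sv2a, Sv2b and Sv2c. Synapsins tether vesicles to each other and to actin. Syn1 scored 10.5 for H3K4me3, 6.28 for H3K27ac and 3.07 for Pol II, and Syn2 scored 10.3, 5.75 and 3.71 in the same lists. Syn3, an isoform prominent in developing neurons, scored 5.50, 3.37 and 2.09. Syn3 was the lowest of the 3 synapsins in each list, and its Pol II score lay just above 2, below which no region was listed.

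The Syn1 promoter, on the X chromosome, is shown because it held the 2 rarest of the 4 motifs searched below. In it capitals mark the left part of the RE1 element (TTCAGCACC), bound by the neuronal gene repressor REST, and the palindromic cAMP response element (TGACGTCA), which do not overlap.
Syn1, chrX:20920919-20921168, minus strand: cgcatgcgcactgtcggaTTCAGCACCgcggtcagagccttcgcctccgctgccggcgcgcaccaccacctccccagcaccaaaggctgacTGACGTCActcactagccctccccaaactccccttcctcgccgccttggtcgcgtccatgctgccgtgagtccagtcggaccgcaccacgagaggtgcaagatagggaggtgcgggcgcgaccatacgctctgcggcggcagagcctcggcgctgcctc

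SV2 proteins are transporter-like glycoproteins of the vesicle, and SV2A is the target of the antiepileptic levetiracetam. Sv2c, the isoform known to be enriched in the basal ganglia, scored 10.1 for H3K4me3, 6.91 for H3K27ac and 3.90 for Pol II. Sv2a scored 8.50, 6.50 and 2.73, and Sv2b scored 7.31, 6.46 and 2.83. The H3K27ac percentiles of the 3 genes lay close together, from 83.6 to 86.9, whereas the Pol II percentiles were 87.5 for Sv2c, 46.6 for Sv2a and 51.7 for Sv2b. Sv2c was thus the highest of the family in each list, by a wide margin for Pol II and a narrow one for H3K27ac. Syngr1, a tetraspan vesicle protein, scored 10.3 for H3K4me3, and Syngr3 and Syp scored 8.37 and 7.25, the Syngr3 region being listed for Gfer and Noxo1 as well. For H3K27ac they scored 6.09, 4.11 and 4.24. For Pol II these 3 genes lay between percentiles 34.6 and 46.7.

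The 12 synaptotagmins were mixed. All 12 had H3K4me3, 11 had H3K27ac, 10 had Pol II and 3 had H3K27me3 (coding genes 68.4%, 51.5%, 41.7% and 42.5%). Syt1, the fast calcium sensor of most forebrain synapses, had regions of 10.9 kb for H3K4me3, 10.3 kb for H3K27ac and 7.7 kb for Pol II, with score percentiles of 81.7, 91.7 and 88.8. Syt2, the fast sensor of hindbrain, spinal and neuromuscular synapses, had a 5.6 kb H3K4me3 region at percentile 17.5 and H3K27me3 over 17.7 kb at percentile 80.0, with that region at 136538801 to 136556500 of chromosome 1 in mm9. The 2 closely related sensors were thus listed for different marks, with H3K4me3 as the mark in common. Syt9, a further fast sensor known from limbic and striatal neurons, had H3K4me3 at percentile 82.3, H3K27ac at 55.0 and Pol II at 40.6.

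Syt6 had the highest H3K4me3 (10.7) and H3K27ac (10.1) scores of the synaptotagmins, over 15.8 kb and 12.0 kb on chromosome 3 (H3K4me3, mm9, 103374701 to 103390500), while its Pol II score of 2.85 lay at percentile 52.5. Syt7, which serves asynchronous release and facilitation, had H3K27ac at percentile 91.9 and Pol II at 63.8. Syt4 and Syt11, whose first C2 domain lacks a calcium ligand, both had the 3 active marks, Syt4 with H3K27ac at percentile 87.7 and Syt11 at 37.6. All 3 regions of Syt11 were also listed for 5830417I10Rik, so none was listed for Syt11 alone. Syt3, Syt5 and Syt12 lay between percentiles 50.8 and 54.3 for H3K4me3 and between 68.2 and 75.4 for H3K27ac. Their Pol II percentiles were 21.6 for Syt3, 47.8 for Syt5 and 16.3 for Syt12. Syt13, which lacks the residues that bind calcium, had low H3K4me3 (4.32) and H3K27ac (2.48) scores, an H3K27me3 score of 6.41 and no Pol II region. Syt10, a calcium sensor of peptide exocytosis in olfactory bulb neurons, scored 8.45 for H3K4me3, 3.38 for H3K27ac, 2.11 for Pol II and, as the 1 synaptotagmin with all 4 antibodies listed, 2.41 for H3K27me3.

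Of the 9 SNAREs, complexins and partners, 9 had H3K4me3, 8 had H3K27ac, 7 had Pol II and 4 had H3K27me3. Over coding genes the shares were 68.4%, 51.5%, 41.7% and 42.5%, so H3K27me3 was not rarer in this group than in general. Snap25, the plasma membrane SNARE of most central synapses, scored 11.6 for H3K4me3, 8.24 for H3K27ac and 4.87 for Pol II, at percentiles 94.9, 93.7 and 96.5, with its H3K4me3 region at chromosome 2, 136535801 to 136547000 in mm9. Vamp2, the main synaptobrevin of the forebrain, scored 9.90, 7.92 and 4.57, at percentiles 82.8, 92.4 and 95.1. Vamp1, which predominates in spinal cord and brainstem, scored 6.65, 2.87 and 2.24, with its Pol II at percentile 15.4, and had an H3K27me3 region with a score of 2.08. Vamp1 was thus below Vamp2 in the list of each active mark. The H3K4me3 and Pol II regions of Vamp2 were also listed for the neighbouring clock gene Per1, whereas its H3K27ac region was listed for Vamp2 alone. Stx1a, a plasma membrane syntaxin, scored 5.14 for H3K4me3 and 2.63 for H3K27ac, at percentiles 23.5 and 13.7, and had no Pol II region.

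The 3 complexins formed a series. Cplx2 had the highest Pol II score of the 40 genes, 5.60 over 19.9 kb of chromosome 13 (mm9, 54470401 to 54490300), with H3K4me3 at 8.40 and H3K27ac at 9.33. Cplx1 scored 2.51 for Pol II, 8.16 for H3K4me3, 5.59 for H3K27ac and 2.66 for H3K27me3. Cplx3, the complexin of retinal ribbon synapses, scored 3.10 for H3K4me3, the lowest of the listed members, and 5.89 for H3K27me3 over 20.3 kb of chromosome 9 (mm9, 57444901 to 57465200), with neither H3K27ac nor Pol II. Cplx1 and Cplx2 were close for H3K4me3 (percentiles 61.7 and 65.1) and apart for Pol II (32.3 and 98.8). Napb, the brain form of the SNAP adaptor that recycles SNARE complexes, lay at percentiles 60.2, 74.6 and 71.4 for H3K4me3, H3K27ac and Pol II. Sncb, which encodes beta-synuclein, had H3K4me3 at percentile 54.3, H3K27ac at 71.1, Pol II at 41.8 and H3K27me3 at 4.10.

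Of the 10 genes for docking and the active zone, 9 had H3K4me3 and H3K27ac, 8 had Pol II and none had H3K27me3. The shares of coding genes were 68.4% for H3K4me3, 51.5% for H3K27ac, 41.7% for Pol II and 42.5% for H3K27me3. The RIM proteins bind Rab3 and calcium channels. Rims2 scored 12.6 for H3K4me3, 10.3 for H3K27ac and 3.91 for Pol II, and Rims1 scored 9.18, 8.23 and 2.93. The H3K4me3 region of Rims2 covered 7.4 kb of chromosome 15 (mm9, 39026001 to 39033400) and that of Rims1 8.1 kb. Rims2 was above Rims1 in each list, and both lay above percentile 93 for H3K27ac. Bsn and Pclo, the giant scaffolds Bassoon and Piccolo, lay at percentiles 95.5 and 87.2 for H3K27ac and 62.9 and 88.4 for Pol II. Erc2, an ELKS family scaffold, was lower, at 45.8 for H3K27ac and 16.8 for Pol II.

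The Rab3 GTPases differed in Pol II. Rab3a, the main brain form, scored 9.37 for H3K4me3, 4.03 for H3K27ac and 2.98 for Pol II, with the H3K4me3 and Pol II regions also listed for the neighbour Mpv17l2. Rab3c scored 8.89, 4.26 and 2.48. Rab3b scored 6.55 for H3K4me3 and 2.72 for H3K27ac and had no Pol II region. Unc13a, the main Munc13 of the forebrain, which opens syntaxin during priming, scored 7.50, 4.78 and 2.96. Its H3K4me3 and H3K27ac regions, of 13.5 kb and 11.9 kb, were also listed for Jak3. Unc13c, the Munc13 known from cerebellar granule cells, was the 1 member with no row in any list.

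The 7 members with H3K27me3 fell into 2 arrangements against the H3K4me3 region of the same gene. At Syt2, Syt13 and Cplx3 the H3K27me3 region covered the whole H3K4me3 region, and its scores were 6.00, 6.41 and 5.89. At Syt2 it reached 1.7 kb further upstream and 10.4 kb further downstream, at Syt13 2.3 kb and 1.0 kb, and at Cplx3 8.4 kb and 6.7 kb. At Syt10, Vamp1, Cplx1 and Sncb it lay on the upstream side and ended within the H3K4me3 region, and its scores were 2.41, 2.08, 2.66 and 2.12. The 2 sets of scores did not overlap among these 7 genes, and how far such scores overlap among coding genes is not given here. Over coding genes with both marks on shared bases, the median H3K27me3 score was 6.17 where it covered H3K4me3 and 3.36 on the upstream side. The bases shared with H3K4me3 came to 3.9 kb at Syt10, 0.6 kb at Vamp1, 0.4 kb at Cplx1 and 0.6 kb at Sncb. In mm9 the H3K27me3 regions of these genes lay at chromosome 2, 92750301 to 92760100 for Syt13, chromosome 15, 89671101 to 89676300 for Syt10, chromosome 6, 125156901 to 125163600 for Vamp1 and chromosome 13, 54869701 to 54873700 for Sncb. At Cplx1 the H3K27me3 region (chromosome 5, 108981401 to 108990300) began where the Pol II region ended, with no shared base.

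**Figure D3:**
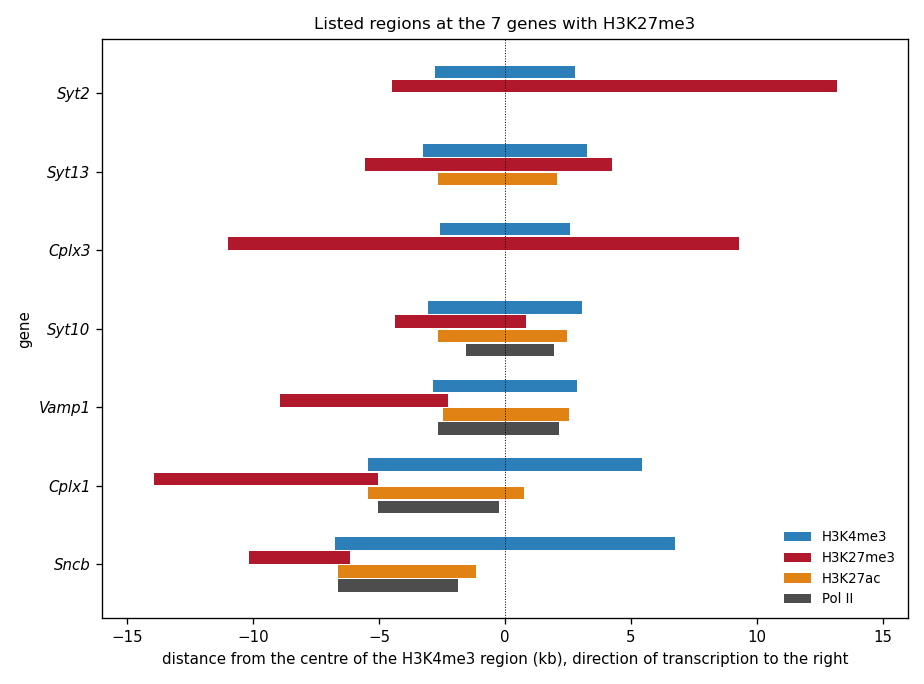
Listed regions of the 4 antibodies (coloured bars) at the 7 members with H3K27me3 (rows), by distance in kb from the centre of the H3K4me3 region, with transcription running to the right. The H3K27me3 bar spans the H3K4me3 bar at Syt2, Syt13 and Cplx3, and at Syt10, Vamp1, Cplx1 and Sncb it lies on the upstream side.

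None of the 3 members whose H3K4me3 region was covered had Pol II, and 1 (Syt13) had H3K27ac. All 4 members with H3K27me3 on the upstream side had both Pol II and H3K27ac. The same contrast held among coding genes in general. Of 4690 coding genes with both marks on shared bases, H3K27me3 covered the H3K4me3 region at 48.9%, and Pol II was listed for 4.92% of those genes. It lay on the upstream side at 33.5%, and there Pol II was listed for 53.4% of the genes. H3K27ac was listed for 9.37% of the covered genes and for 80% of the genes with H3K27me3 upstream. No H3K27me3 region of a member was listed for any other symbol. Counting only regions listed for 1 symbol, 29.0% of coding genes had H3K27me3, against 42.5% with all regions.

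H3K4me3 regions of the release genes often ran past the H3K27ac region into the transcribed side. Of the 37 members with both marks, 32 had a longer H3K4me3 reach downstream than upstream, as did 70.9% of the 10711 coding genes with both marks on shared bases. The median reach was 1.8 kb downstream and 0.2 kb upstream, against 0.8 kb and 0.4 kb over those coding genes. The reach exceeded 2 kb downstream at 16 members, against 21.9% of those coding genes, and upstream at 3 members, against 8.18%. It was 10.1 kb at Syp, 7.9 kb at Sncb, 7.5 kb at Bsn, 6.7 kb at Syt7 and 4.3 kb at Syn1. The longest, at Syt11 (23.4 kb), Vamp2 (20.5 kb) and Sv2a (15.2 kb), lay in regions also listed for a neighbour, 5830417I10Rik, Per1 and Bola1. Without the 6 members that shared a region with another symbol, 11 of 31 exceeded 2 kb, against 19.2% of 7513 coding genes whose regions were likewise unshared. The upstream reach was the longer at 5 members. Syngr3 had 6.6 kb upstream and 2.7 kb downstream. Cplx2 had 2.4 kb upstream and 0.3 kb downstream, and Syt9, Vamp1 and Rims2 had 0.4 kb upstream and 0.3 kb downstream each.

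**Figure D4:**
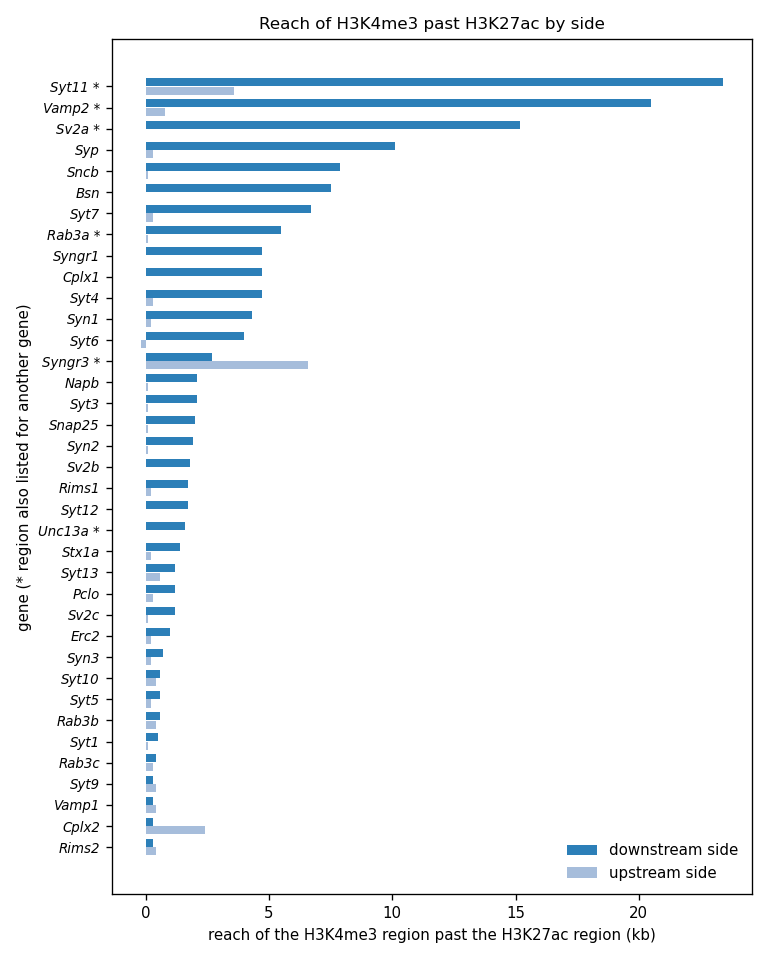
Reach of the H3K4me3 region past the H3K27ac region in kb (horizontal axis) on the downstream and upstream side, for the 37 members with both marks (rows), with negative values where H3K4me3 stopped short and an asterisk where a region was also listed for another gene. Downstream bars are longer than upstream bars in 32 rows, and Syngr3 and Cplx2 are among those with the longer bar upstream.

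Pol II extended past H3K27ac into the transcribed side at a few members. The Pol II region ran on by 12.0 kb at Cplx2, by 10.1 kb at Vamp2 and by 5.2 kb at Rab3a, while at the other 31 members with both it ended at most 0.5 kb beyond the H3K27ac region or stopped short of it. Of these 3, the Cplx2 region alone was listed for 1 symbol. No share of coding genes is given for this reach, so it cannot be compared with genes in general. Members' widths were otherwise near those of all listed genes for Pol II, with a median of 4.95 kb for the 34 listed members and 4.9 kb for coding genes. For H3K27ac the medians were 5.7 kb and 5.3 kb, for H3K4me3 8.1 kb and 6.6 kb, and for H3K27me3 8.9 kb and 15.9 kb. Each listed member had 1 distinct region per antibody, including the 11 members listed under several transcripts for H3K4me3. A single region was also the rule among listed coding genes, so it does not set the members apart. Coding genes with several regions made up 1.73% of the Pol II list, 2.18% of the H3K27ac list, 3.30% of the H3K4me3 list and 7.72% of the H3K27me3 list.

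Promoter sequence of the same kind as shown above was available for 30 members. Their median was 13 CG pairs in 250 bases, against 10 over 16853 coding genes, and the members spanned 6 (Rab3b and Unc13c) to 40 (Syt9). Over coding genes the median was 18 with H3K4me3, H3K27ac and Pol II alone, 16 with all 4 antibodies, 9 with H3K4me3 and H3K27me3 alone and 2 with no region. Of the 21 members with H3K4me3, H3K27ac and Pol II alone and a window, 12 lay below the median of their kind. Of the 2 members with H3K4me3 and H3K27me3 alone, Syt2 held 30 CG pairs and Cplx3 held 9. For genes with several annotated starts the most upstream window was used, and whether a window lay in its gene's listed region was not checked.

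**Figure D5:**
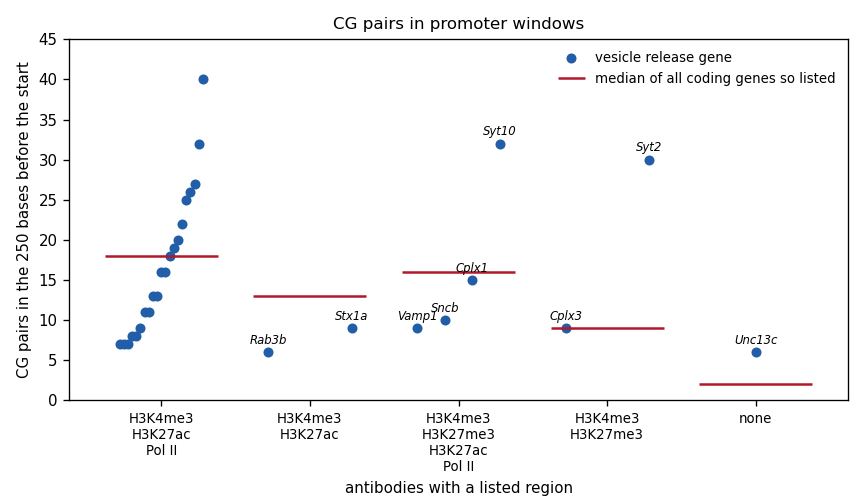
CG pairs in the 250 bases before the annotated start (vertical axis) of 30 vesicle release genes (points) by the antibodies with a listed region (horizontal axis), with the median of all coding genes so listed as a line. Members with H3K4me3, H3K27ac and Pol II run from 7 to 40 pairs around a line at 18, and Syt2 stands at 30 where the line is at 9.

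Motifs were searched on both strands of these windows. The GC box (GGGCGG), which holds a CG pair itself, was found at 22 of the 30 members and at 44.0% of all 16853 windows. The TATA box (TATAAA) was found at Rab3b and Sv2b and at 12.3% of all windows. The cAMP response element was found at Syn1 and at 2.04% of all windows, and the left part of RE1 at Syn1 and at 0.314%. A match describes these letters and not a bound site.

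A further 64 genes of vesicle release and its regulators, from a list of 66 symbols of which 64 matched the gene table, were less uniform. H3K4me3 was listed for 57, H3K27ac for 43, Pol II for 35 and H3K27me3 for 20. These are 89.1%, 67.2%, 54.7% and 31.2%, between the shares of the 40 members and those of coding genes for each antibody. A total of 33 had H3K4me3, H3K27ac and Pol II alone, among them Nsf, the ATPase that takes SNARE complexes apart. Nsf and Cadps were picked for naming after their values were seen.

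Several of them completed the isoform contrasts of the members. Unc13b, the remaining brain Munc13, had H3K4me3 at 24.9 and a 3.3 kb H3K27me3 region at 8.91, with neither H3K27ac nor Pol II, so that of the 3 genes Unc13a alone had H3K27ac or Pol II. Cplx4, the other retinal complexin, had H3K4me3 at 3.05 under a 57.9 kb H3K27me3 region at 98.4, the arrangement of Cplx3. Sncg, gamma-synuclein, had H3K27me3 without H3K4me3, whereas Sncb had H3K4me3 and Pol II. Cadps, a priming factor of dense-core vesicles, had Pol II at percentile 88.0, and its paralogue Cadps2 had H3K27me3 over its H3K4me3 region and no Pol II. Syngr2, the synaptogyrin of non-neuronal cells, lay under a 20.4 kb H3K27me3 region at 90.4. Syt17 and Syt15 lay under H3K27me3 regions of 149.1 kb and 199.2 kb, and Syt8 and Sytl3 had H3K27me3 alone. H3K27me3 covered the H3K4me3 region of 8 genes of this list (Vamp8, Cplx4, Syt15, Syt17, Sytl4, Rab3il1, Cadps2 and Syngr2), and none of them had Pol II. Of 3 with H3K27me3 on the upstream side (Napa, Rab3gap2 and Otof) 2 had it. The H3K27me3 region lay on the downstream side at Unc13b and Sypl2, inside the H3K4me3 region at Stxbp6 and Doc2a, and apart from it at Sytl2 and Synpr, and none of these 6 genes had Pol II. No region was listed for Vamp7, Sytl1, Sytl5 or Ppfia4.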

How the data were processed

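Chromatin from sorted striatal neuronal nuclei was immunoprecipitated with 4 antibodies and sequenced, with 1 library each and 1 input. The submitters' processing notes name build mm9, MACS 1.4 and Bowtie 0.12.7 without saying what each did. The deposited files list regions within 3 kb of transcription start sites, per the file names, each with a RefSeq transcript, a symbol and a score over input given by the authors, whose scale is not given in the sources used here. The lowest listed score was 2.00. Ranks and filters by score stayed inside a single list, and groups were taken from the antibody in the labels.

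Members were matched by symbol. For the background, transcripts were matched by accession, then symbol, to RefSeq tables of GRCm38.p6, from which names, biotypes and promoter windows were read, and 99.3% to 99.8% of lines matched. With no replicates there is no test, interval or p-value, and read depth, and so the precision of each list, is unknown. A gene's width is that of its widest region. Sides were taken from the listed strand, overlap from 1 shared base. Members, gene lists, the markers and the alternatives were chosen with earlier results of these data known. All members are named. By the rule for naming, other genes are named where they share a member's region, or where, in the list of other release genes, they have H3K27me3 or lack H3K4me3. Markers and a few genes chosen after their values were seen are named besides. Some items of the gene lists are not reported here. Measures were tested on simulated data. Python 3.11.15, numpy 2.4.6, pandas 2.3.3 and matplotlib 3.10.9 were used.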

Additional observations from a re-analysis of the deposited data

How the results depend on the processing

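No paired analysis was possible because each antibody has 1 library, and no replicate could be left out. The comparison of H3K4me3 reach without shared regions was added after the data were seen. Of 57 alternative values, 35 stayed within 1.5 times the reported one. Keeping in each list the regions in its upper 50% of scores, 19 members had Pol II and 3 (Cplx3, Syt2, Syt13) had H3K27me3, and the combinations held 17 members for H3K4me3, H3K27ac and Pol II (16.2% of coding genes), 11 for H3K4me3 and H3K27ac (6.56%), 5 for no region (38.3%), and 0 each for H3K4me3 and H3K27me3 alone (2.37%), with H3K27ac (0.651%) or with all 4 (0.504%). In those shortened lists 21.2% of coding genes had Pol II and 25.0% had H3K27me3. Of the 64 other vesicle release genes, 32 then had H3K4me3, 28 had H3K27ac, 19 had Pol II and 16 had H3K27me3. The coding shares for H3K4me3 and H3K27ac were 37.0% and 26.1%. For H3K27me3 the 16 of 64 lay near the coding share of 25.0%. Their place between the members and coding genes thus did not hold for H3K27me3 in this setting. With lists of equal length, no region was listed for 2 members (18.7% of coding genes), and 0 had H3K4me3 with H3K27ac alone (2.15%), H3K4me3 with H3K27me3 alone (2.45%), or H3K4me3, H3K27me3 and H3K27ac alone (1.003%). With regions of at most 20 kb, 1 member (Syt2) had H3K4me3 and H3K27me3 alone (5.91%). Requiring 50% of the narrower region left 4 members with H3K27me3 on shared bases with H3K4me3, 2 with H3K27ac and 1 with Pol II, and requiring the narrower region wholly inside left 3, 1 and 0, against 7, 5 and 3 with 1 shared base. These settings keep fewer regions or bases by construction. The H3K27me3 regions of Syt10, Vamp1 and Sncb score below 2.5, near the lowest listed value, and depth is unknown.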

Other observations

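Score ranks of different antibodies went together across members. Over the 37 members with H3K4me3 and H3K27ac, Spearman's rho was 0.74, and over the 10803 coding genes with both it was 0.70. For H3K27ac and Pol II it was 0.70 over 34 members and 0.67 over 8566 coding genes. For H3K4me3 and Pol II it was 0.64 over 34 members and 0.48 over 8753 coding genes. The points share an input library, so these values are descriptions of 1 set of libraries, across genes.

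Of the 34 members with Pol II, 7 had a score below 2.5, near the lowest listed, as did 31.8% of the listed coding genes. For H3K27me3 3 of the 7 listed members did (Syt10, Vamp1 and Sncb), against 17.4% of the listed coding genes. For H3K27ac 1 of the 37 did (Syt13), against 10.6%, and for H3K4me3 none of the 39, against 4.78%.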
